A study of Mus musculus with 4 samples.

Results

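Liver RNA of female C57BL/6 wild-type mice treated with aristolochic acid I (AAI), the plant toxin behind aristolochic acid nephropathy, was compared with that of corn oil-treated females. AAI was injected i.p. at 5 mg/kg/day, 5 days a week for 3 weeks, corn oil was the vehicle control, and the labels give an age of 6 weeks. Both arrays were chosen by their labelled sex, dose and tissue, and they are 2 of the 4 arrays of the series. The other 2 hold RNA of male mice given 2 mg/kg/day AAI or corn oil. Each array carried equal amounts of total RNA from the livers of 5 mice, so that the spread between mice was averaged away before the measurement. There were no replicates, no test was run, and every value is a description of these 2 pools. Male values are given side by side in places. The doses differed between the sexes, so sex and dose cannot be told apart, and no difference between the sexes was tested.

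The liver takes up AAI and processes it by nitroreduction, by oxidative demethylation through cytochrome P450 enzymes, and by conjugation. Many liver genes of mice are controlled by the sex-dependent pattern of growth hormone release, among them the P450 enzymes of the Cyp2b and Cyp3a families, the sulfotransferases and the major urinary proteins, a family of small lipocalins that carry pheromones into urine. The liver also holds Kupffer cells, its resident macrophages, which clear particles from the portal blood and present antigen.

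Signals are log2 values of the processed spot intensity after quantile normalization over the 4 arrays. A log2 ratio is the AAI-treated minus the corn oil-treated female pool, so that 1 means 2-fold higher and -1 means 2-fold lower. A gene is represented by its brightest probe. On the female arrays 77.9% (corn oil) and 81.5% (AAI) of the probes were well above background, no spot was saturated, and the same probe spotted 8 or more times on an array had a median SD of 0.063 and 0.072 log2 units. Of 37039 genes, 29721 passed the background mark for both female pools, and their median log2 ratio was 0.036, with the 5th and 95th percentiles at -0.80 and 0.66. Different probes of 1 gene gave log2 ratios with a median SD of 0.25 over 9131 genes, which is the only error available and is technical. Alb, the main plasma protein of hepatocytes, had a signal of 19.12 on both arrays. Its other probe gave a log2 ratio of -0.12, and under other ways of processing its ratio ran from -0.25 to 0.05. The 16 hepatocyte markers had a median log2 ratio of -0.01, with none 2-fold lower or higher.

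After AAI, 972 genes (3.07%) were lower by 2-fold or more and 426 (1.34%) were higher by as much, out of 31690 genes that were above background in either pool. Of these, 174 lower and 99 higher genes were not well above background on the other array and rest on a lower bound. The split was 69.5% lower, and it was 54.0% lower with scaling to the 75th percentile of each array. At 8-fold the counts were 38 lower and 40 higher genes, and at 16-fold they were 15 lower and 27 higher. Large differences thus lay on both sides, while moderate ones lay more often on the lower side under quantile normalization. The 10 largest increases among genes above background in both pools were of genes that skeletal muscle expresses, described below. Where a gene past 2-fold had 2 or more probes above background (272 genes), every probe had the same sign in 171 genes and every probe was past 2-fold the same way in 44. Where a named gene past 2-fold had other probes above background on both arrays that fell short of 2-fold, their values are given.

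**Figure D1:**
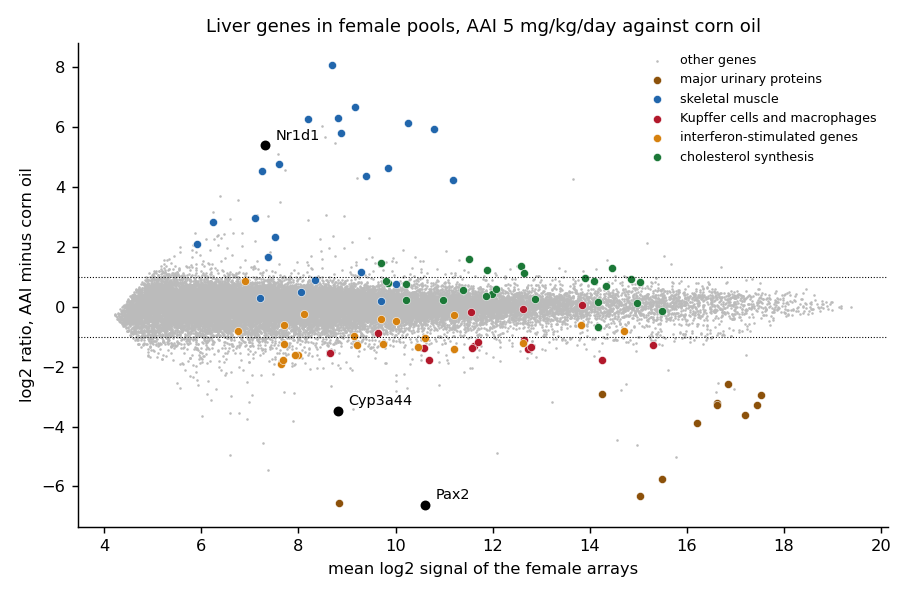
Each point is a gene above background in both female pools, with its mean log2 signal on the x axis and the log2 ratio (AAI minus corn oil) on the y axis. Colours mark members of 5 gene lists and dotted lines mark 2-fold. The major urinary proteins lie at the bottom right with ratios of -2.58 or less, except Mup11, which has a lower signal, and the skeletal muscle genes lie at the top, up to 8.08 for Acta1.

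The family with the lowest ratios was that of the major urinary proteins. All 11 Mup genes on the array were above background on both arrays and all 11 were at least 2-fold lower, against 3.07% of all genes, with a median log2 ratio of -3.29 and a range of -6.57 to -2.58. Their summed signal was 21.74 with corn oil and 18.28 with AAI on the log2 scale. Mup2 went from 18.19 to 11.86 (a log2 ratio of -6.33), and Mup5 from 18.35 to 12.61 (53.5-fold lower). Mup20, known as darcin, the male scent protein that attracts females, was 18.15 with corn oil and 14.27 with AAI, 14.8-fold lower. By the brightest probes, the least affected members were Mup4, with 18.13 and 15.55, and Mup6 and Mup19, each with a log2 ratio of -2.93. This order depends on the probe, since another probe gave -5.59 for Mup6 and another -0.71 for Mup3. The 3 lowest ratios by the brightest probes belonged to Mup11, Mup2 and Mup5, and the other 8 lay between -3.89 and -2.58. In the male pools the median of the family was -1.15, and 5 of the 10 genes above background on both male arrays were at least 2-fold lower. Others differed little there, with 18.90 and 18.89 for Mup1 and 18.99 and 19.04 for Mup21.

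A further 4 transcripts, annotated as Mup pseudogenes, were among the 20 largest decreases, all on chromosome 4 like the genes of the family. ENSMUST00000120662 had a log2 ratio of -5.02, ENSMUST00000119998 of -4.87, ENSMUST00000178663 of -4.61 and ENSMUST00000126217 of -4.44. Because Mup genes are near copies of each other, the 60-base probes were compared with each other. Among all pairs of the 11 genes and the 4 transcripts, 5 pairs were at least 70% identical over 40 or more aligned bases, and 3 of them at least 90%. The stretches below show 1 such pair, a gene beside a pseudogene transcript, with the differing bases in capitals. They are printed 5′ to 3′ as on the array, both on the minus strand of mm9, Mup20 at chr4:61713671-61713730 and ENSMUST00000119998 at chr4:61691724-61691783.
Mup20: tgctCTGaaatatttttggttgctgacaaa
ENSMUST00000119998: tgctTCAaaatatttttggttgctgacaaa
Over their full overlap the probes of Mup20 and ENSMUST00000119998 share 54 of 60 bases with a longest shared run of 23, and those of Mup1 and Mup21 share 42 of 45 bases with a run of 25. Signal from 1 of these transcripts may be read by the probe of the other, so these pairs are uncertain as separate genes. The other Mup genes had no such partner at 90%, and their ratios lay in the same range. Probes were compared only with each other and not with transcripts, so whether each of these probes reads 1 gene alone was not tested. All 5 Mup genes with other probes above background had the same sign by every probe: the other probe gave -4.90 for Mup11, -2.20 for Mup20, -4.11 for Mup21 and -5.59 for Mup6, and the other probes of Mup3 gave -3.04 and -0.71.

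The Cyp3a genes, which encode P450 enzymes that oxidize steroids and many drugs, did not share this pattern. Cyp3a44 was 11.1-fold lower, with 10.54 on the corn oil array and 7.07 on the AAI array, and the other 7 members lay between -0.66 for Cyp3a16 and 0.07 for Cyp3a11. Cyp3a41a had 18.20 and 17.97, a log2 ratio of -0.23, which is within the SD between probes of 1 gene. Cyp3a44 was the only member past 2-fold. Its only probe lies at chr5:146585717-146585776 on the minus strand of mm9, and its first 30 bases are shown because it is the member that differed.
Cyp3a44: cactgagctttctcagtgtctgtgcaagtt
Of 28 pairs of Cyp3a probes, only Cyp3a25 and Cyp3a57 were at least 70% identical, with 49 of 52 aligned bases the same. The probe of Cyp3a44 had no such partner among these probes, but whether it also reads the transcript of another Cyp3a gene was not tested.

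**Figure D2:**
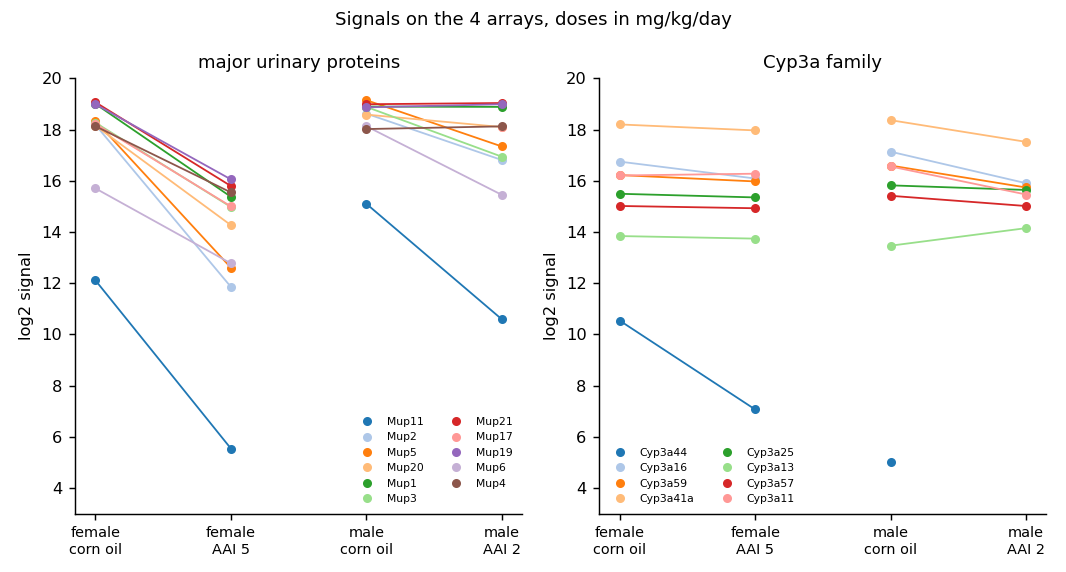
Log2 signals (y axis) of the 11 Mup genes (left) and the 8 Cyp3a genes (right) on the 4 arrays (x axis, AAI doses in mg/kg/day), each gene 1 line within a sex. Every Mup line descends between the female arrays, while in the right panel the steepest line between the female arrays is that of Cyp3a44, from 10.54 to 7.07. Cyp3a44 in AAI-treated males and Mup17 in corn oil-treated males have no usable spot and no point.

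Other genes whose expression differs between the sexes in mouse liver showed no common direction in the female pools. The 34 female-biased genes measured had a median of -0.10, with 5 at least 2-fold lower and 1 higher, and the 23 male-biased genes a median of -0.16, with 4 lower and 1 higher. Over all genes 3.07% were lower and 1.34% higher by as much, so both lists held a larger share of lower genes than the array did. In the male pools the same lists had medians of 1.59 and -1.94. The lower female-biased genes were Cyp3a44, Hamp2, Nnmt, Cyp2b10 and Sult2a1, and the higher one was Sult1e1, the estrogen sulfotransferase, at 1.05. The male-biased gene with the lowest ratio after Mup20 was Slco1a1, a hepatocyte uptake transporter for organic anions, with 8.60 and 6.34 (4.78-fold lower). Of the genes of growth hormone signalling, Onecut1 (-1.31) and Socs2 (-1.15), a feedback inhibitor of the hormone's receptor, were at least 2-fold lower, although the other probe of Onecut1 gave -0.49 and those of Socs2 -0.92 to -0.48. Socs3 was 2.10-fold higher. In all, 2 of the 20 genes of this list were at least 2-fold lower and 1 higher, against 3.07% and 1.34% of all genes. Igf1, the main secreted product of the hormone's action on liver, had a log2 ratio of -0.14.

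Markers of Kupffer cells were lower in the AAI-treated pool. Of 15 macrophage genes, all above background on both arrays, 11 were at least 2-fold lower, against 3.07% of all genes, and none higher, with a median log2 ratio of -1.30. In bulk RNA, fewer cells of a type and less RNA per cell cannot be told apart. Clec4f, a lectin found on Kupffer cells, went from 13.44 to 12.03. Cd5l, a secreted macrophage protein, went from 15.15 to 13.37, and Adgre1, which encodes an adhesion receptor used as a macrophage surface marker, from 11.28 to 9.89. The phagocytic receptor Timd4 was at 9.44 and 7.88, and the folate receptor Folr2 at 11.58 and 9.79. These 5 genes were 2.63-fold to 3.44-fold lower. The 3 chains of complement C1q, made in the liver largely by macrophages, were also lower together, with -1.30 for C1qa, -1.18 for C1qb and -1.10 for C1qc. Not every macrophage gene followed: Marco, a scavenger receptor, had 0.05, the iron exporter Slc40a1 -0.06 and the lysosomal protein Cd68 -0.17. For Csf1r, the receptor of the macrophage growth factor, the brightest probe gave -1.33 and another probe 0.22. Of the 5 genes with further probes, 4 had the same sign by every probe. The summed signal of the list was 17.43 with corn oil and 16.33 with AAI.

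The genes of antigen presentation on MHC class II, which macrophages, dendritic cells and B cells carry, were lower too. Of 13 genes, 6 were at least 2-fold lower, against 3.07% of all genes, and none higher, with a median of -0.98. H2-Ab1, the beta chain of a class II molecule, went from 13.06 to 11.23, and its other probes gave -1.80 to -1.57. H2-Eb1 went from 12.84 to 11.17 and the invariant chain Cd74 from 12.64 to 11.08. All probes of H2-Ab1 were thus past 2-fold the same way. Cd86, a costimulatory ligand for T cells, had 8.83 and 7.15, and its other probes gave -2.25 to -1.04. Ciita, the activator of class II genes, had a log2 ratio of 0.30 and H2-DMb2 of 0.60.

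Other immune cells differed less from the median of all genes. The 18 markers of T and NK cells had a median of -0.40, with 1 of them at least 2-fold lower, the adhesion molecule Cd2, at 8.36 and 6.83. The T cell receptor component Cd3e had -0.56 by its brightest probe and 0.24 by another. The 12 markers of B and plasma cells had a median of 0.17, with 1 at least 2-fold lower, the adaptor of B cell receptor signalling Blnk, at -1.01. The 11 of neutrophils had a median of 0.22, with none past 2-fold. Among 12 genes of sinusoidal endothelium the median was -0.34, and the only one past 2-fold, Gpr182, had -1.84 by 1 probe and 0.33 by the other. Over all genes 3.07% were at least 2-fold lower.

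Of 21 interferon-stimulated genes, 20 had a ratio under 0, 11 were at least 2-fold lower, against 3.07% of all genes, and none was 2-fold higher. Their median was -1.04. Cxcl10, a chemokine induced by interferon gamma, went from 8.60 to 6.69. The antiviral genes Ifit1, with 8.56 and 6.79, and Rsad2, with 8.73 and 7.13, were 3.42-fold and 3.02-fold lower, and the second Rsad2 probe gave -1.59. Isg15, a ubiquitin-like modifier, was 2.69-fold lower and Oasl2 3.02-fold lower. The exception was Mx1, with a log2 ratio of 0.85. Of the 8 genes with further probes, 6 had the same sign by every probe. The ratios under 0 were not confined to dim genes, since Iigp1, a guanosine triphosphatase, had 15.09 with corn oil and 14.30 with AAI by its brightest probe, with another at 0.46. The male pools had a median of -0.41 for the same genes, with 2 at least 2-fold lower.

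Promoter sequence was examined for the interferon-stimulated genes because they were lower together. The element searched on both strands was TTTC, any 2 bases, TTTC, the core of the interferon-stimulated response element, in the 250 bases before each start in the RefSeq promoters of GRCm38.p6. Of the 21 genes, 15 had an entry, and 10 of these hold the element, against 3.463% of all 27025 genes with an entry. The 3 promoters below are shown as the 150 bases before the start, 5′ to 3′ on the strand of the gene, with every match in capitals. Ifit1 is at chr19:34640739-34640888 on the plus strand, Isg15 at chr4:156200819-156200968 on the minus strand and Oas1a at chr5:120907526-120907675 on the minus strand.
Ifit1: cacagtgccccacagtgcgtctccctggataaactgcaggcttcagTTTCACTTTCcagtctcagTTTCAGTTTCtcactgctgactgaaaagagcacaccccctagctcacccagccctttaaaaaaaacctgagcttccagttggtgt
Isg15: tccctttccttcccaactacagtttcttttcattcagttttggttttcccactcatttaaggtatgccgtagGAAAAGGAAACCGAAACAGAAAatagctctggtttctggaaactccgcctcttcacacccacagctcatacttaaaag
Oas1a: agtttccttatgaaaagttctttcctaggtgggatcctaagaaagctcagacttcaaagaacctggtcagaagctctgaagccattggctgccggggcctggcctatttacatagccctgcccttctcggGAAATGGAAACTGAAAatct
Ifit1 holds 2 matches, Isg15 3 that overlap and Oas1a 2 that overlap, and their log2 ratios were -1.77, -1.43 and -1.34. The 10 genes with the element had a median log2 ratio of -1.32 and the 5 without it of -1.22, so the ratios did not separate by these letters in this window.

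**Figure D3:**
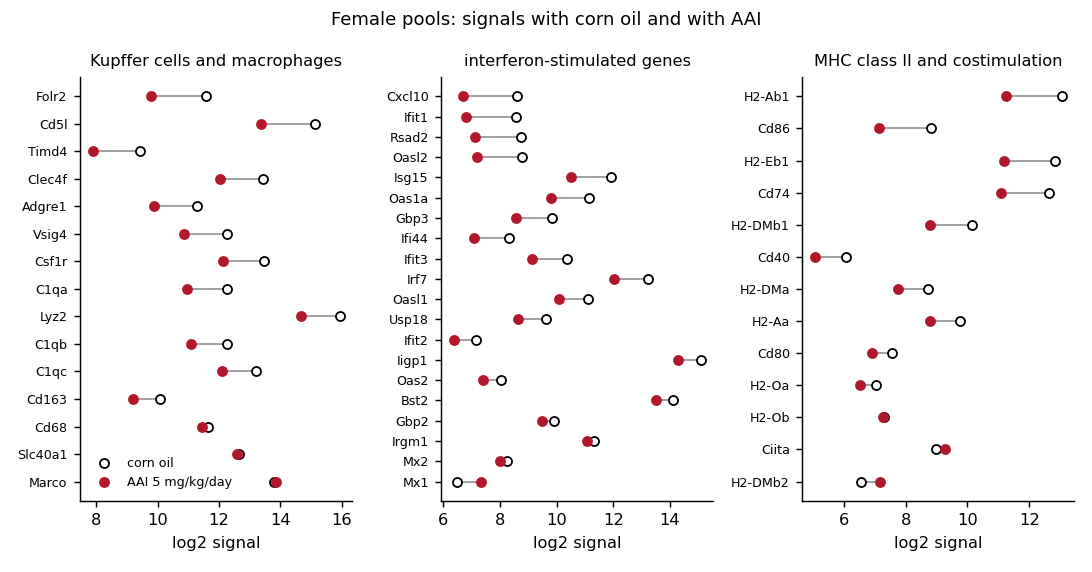
Log2 signals (x axis) of the macrophage, interferon-stimulated and MHC class II genes (rows, some members left out) in the female pools, open circles for corn oil and filled circles for AAI at 5 mg/kg/day. In nearly every row the filled circle lies to the left, and Marco, Mx1, Ciita and H2-DMb2 are the rows where it lies to the right.

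Chemokines lay on both sides of 0, and the 21 measured had a median of -0.27. Cxcl13, which attracts B cells to lymphoid follicles, was 10.6-fold lower, with 10.84 on the corn oil array and 7.43 on the AAI array. Cxcl9, which attracts T cells, had -1.14. Ccl8, which attracts monocytes, was 2.84-fold higher, with 7.42 and 8.93, and Ccl2 had 0.79. In all, 3 of the 21 were past 2-fold on the lower side and 2 on the higher side, against 3.07% and 1.34% of all genes. In the male pools Cxcl13 had 9.77 and 9.51, and Ccl8 7.33 and 10.93.

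Genes of cholesterol synthesis were higher in the AAI-treated pool. All 25 measured genes were above background on both arrays, 23 had a ratio above 0, 6 were at least 2-fold higher (against 1.34% of all genes) and none was 2-fold lower, with a median log2 ratio of 0.75. The genes past 2-fold cover early and late steps. Mvk and Mvd, kinase and decarboxylase of the mevalonate pathway, had ratios of 1.13 and 1.45, and Idi1, the isopentenyl diphosphate isomerase, went from 13.81 to 15.09. Lss, which closes the sterol rings, had 1.21, and its other probes gave 1.49 to 1.82. Cyp51, the lanosterol demethylase, went from 11.91 to 13.26, and its other probe gave 1.12. Nsdhl, with 10.72 and 12.31, had another probe at -0.21. Hmgcs1, the HMG-CoA synthase of the first steps, was 1.76-fold higher, and the squalene epoxidase Sqle 1.49-fold. Tm7sf2 (-0.69) and Ebp (-0.16) were the 2 members below 0. Of 16 members with further probes, 11 had the same sign by every probe. The male pools had a median of 0.43 for the same genes, with 3 at least 2-fold higher and none lower by as much.

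A sterol response element, TCAC, any base, CCAC, was searched in the same 250-base windows on both strands. It was found in 1 of the 18 cholesterol genes with an entry, Hmgcs1, and in 1.225% of all genes. This promoter, chr13:119690201-119690350 on the plus strand of GRCm38.p6, is shown with the match in capitals.
Hmgcs1: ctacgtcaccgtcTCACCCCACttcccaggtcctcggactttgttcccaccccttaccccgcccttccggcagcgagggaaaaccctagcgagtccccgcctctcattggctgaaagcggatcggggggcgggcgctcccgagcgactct
Fatty acid synthesis genes did not share the shift of the sterol genes. The 27 genes of lipogenesis and elongation had a median of -0.08 with none past 2-fold, although Srebf1, whose product activates them, had 0.77. Fasn had 0.30 and Scd1 0.15. Of the 16 genes of bile acid synthesis and conjugation, only 1 was past 2-fold, on the lower side, against 3.07% of all genes. It was the sterol 12-alpha-hydroxylase Cyp8b1, with 10.34 and 8.85. Cyp7a1, the rate-limiting enzyme of bile acid synthesis, had -0.19, and -0.18 by its other probe.

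Glutathione S-transferases, which conjugate glutathione to electrophiles, were higher as a group. Of 21 genes, 17 had a ratio above 0, 6 were at least 2-fold higher, against 1.34% of all genes, and none was 2-fold lower, with a median of 0.58. Gsta2 went from 14.68 to 16.36 (3.20-fold) and Gstp1 from 13.58 to 15.13 (2.93-fold). Mgst3, a microsomal member, had 11.81 and 13.18, and Gstm4 13.50 and 14.76. The 2 others were Gsta4 and Gstm6, 2.07-fold and 2.29-fold higher, and the other Gstm6 probe gave 0.25. Mgst2, at -0.86, was the member with the lowest ratio. In the male pools the same genes had a median of 0.54, with 5 at least 2-fold higher and 1 lower. None of the 231 pairs of Gst probes was 70% identical, the highest being 51.2%. The probes were not compared with the transcripts of other family members, so reading of 1 member by the probe of another was not tested. A transcript in the Gsta region of chromosome 9, ENSMUST00000095071, with its probe at chr9:78169106-78169165 of mm9, went from 7.04 to 11.36 (19.9-fold higher) and had 8.19 and 8.85 in the male pools.

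Other genes that Nrf2 activates were mixed. The 27 targets measured had a median of 0.09, with 2 at least 2-fold lower and 1 higher, against 3.07% and 1.34% of all genes. Nqo1, the quinone reductase that also reduces the nitro group of AAI, was the higher one, at 2.82-fold. Osgin1 had 0.99 and Ephx1, the microsomal epoxide hydrolase, 0.84. By their brightest probes Gclc (-0.20), Srxn1 (0.02), Txnrd1 (-0.21) and Hmox1 (-0.32) had ratios of 0.32 or less in size. The other probe gave 0.68 for Hmox1 and 0.20 for Txnrd1, so no direction can be given for either. The 2 lower ones were the metallothioneins Mt1 and Mt2, which bind zinc and copper. Mt2 was 5.84-fold lower, with 17.91 on the corn oil array and 15.37 on the AAI array. The brighter Mt1 probe went from 18.03 to 16.41, while its other probe gave 0.09. In the male pools Mt2 had 14.53 and 17.70.

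**Figure D4:**
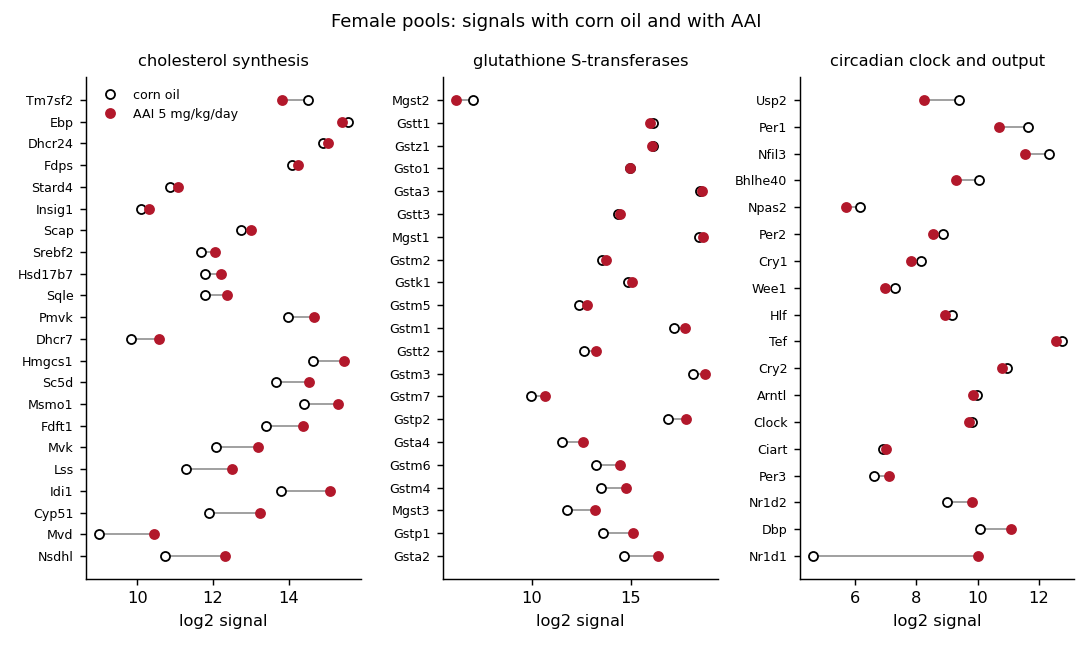
Log2 signals (x axis) of genes of cholesterol synthesis, glutathione S-transferases and the circadian clock (rows, ordered by ratio, some members left out) in the female pools, open circles for corn oil and filled circles for AAI at 5 mg/kg/day. In the left and middle panels the filled circle lies to the right in nearly every row, except Tm7sf2 and Ebp (left) and Mgst2, Gstt1, Gstz1 and Gsto1 (middle), and in the right panel Nr1d1 has the longest line, from 4.61 to 10.01.

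Of the enzymes that reduce or conjugate AAI metabolites, 2 of 9 (Nqo1 and the sulfotransferase Sult1b1) were at least 2-fold higher, against 1.34% of all genes. Sult1b1 went from 11.74 to 12.77, and its other probe gave 0.87. Sult1a1, a sulfotransferase that activates N-hydroxyaristolactam, had a ratio of -0.07, and the acetyltransferases Nat1 and Nat2 had -0.39 and -0.35. The sulfotransferase family as a whole had a median of -0.56. Among its 15 members 3 were at least 2-fold lower and 2 higher, against 3.07% and 1.34% of all genes. Sult2a1, which sulfonates bile acids and steroids, had 16.93 and 15.90 in females, against 4.25 and 5.14 in males, where its probe was not well above background with corn oil. Sult2a4 was 2-fold lower as well, and Sult2a2 had -0.80. The probes of these 3 genes share 88.7% to 94.4% of their aligned bases, so they may read each other's transcripts. Sult5a1 had -1.21, and its other probes gave -0.72 to -0.01.

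Other phase I and transport genes differed singly. The 15 Cyp2c genes had a median of 0.24 with none past 2-fold, and the 14 UDP-glucuronosyltransferases a median of -0.17 with none past 2-fold. Cyp2b10, the classical target of the receptor CAR, had 16.04 and 14.80, and its other probe gave -1.52. Its neighbour Cyp2b9 had -0.43, and Cyp2g1, a P450 of the olfactory type, was 2.29-fold higher. Of 12 carboxylesterases, hydrolases of esters and lipids, Ces3a and Ces3b were lower, with 14.90 and 13.25 and with 12.03 and 10.79, while the other 10 lay between -0.31 and 0.56. Among 22 transporters, Slco1a1 was the only one 2-fold lower and Slc51b, a subunit of the basolateral bile acid exporter, the only one 2-fold higher, with 9.04 and 10.54. Both the carboxylesterases and the transporters are to be read against 3.07% of all genes lower and 1.34% higher by 2-fold. Abcg2 had 0.82 and Abcb11, the bile salt export pump, 0.57.

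Of 34 nuclear receptors and partner factors, 3 were at least 2-fold lower and 1 higher, against 3.07% and 1.34% of all genes. Nr1i2, which encodes the xenobiotic receptor PXR, had 9.98 and 8.76, and Cebpb, a leucine zipper factor of liver metabolism and the acute phase, had 13.78 and 12.71. The higher one, Crebbp, rests on 1 of its probes, with 1.58 against 0.02.

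Nr1d1, which encodes the clock repressor REV-ERB alpha, had the 11th largest increase among genes above background in both pools, after 10 genes that skeletal muscle expresses. Its single probe, at chr11:98630526-98631028 of mm9, gave 4.61 with corn oil and 10.01 with AAI, a 42.2-fold difference, and 7.91 and 8.49 in the male pools. The log2 ratio of 5.40 in females ran from 3.27 to 5.53 under other ways of processing, so the size of the difference is uncertain. The value with corn oil was dim, as the mean signals of genes above background on both female arrays began at 4.23. The corn oil-treated female pool was the low one of the 4. The related Nr1d2 had 0.81, with its other probes at 1.01 and 1.04, and the output gene Dbp had 1.02, with its other probe at 0.47. Arntl, the gene for BMAL1, had -0.11. Of the 19 clock and output genes above background on both arrays, 14 were below 0, with a median of -0.22. In all, 2 of the 19 were at least 2-fold lower and 2 higher, against 3.07% and 1.34% of all genes. Of the lower ones, Usp2 had -1.16, with its other probe at -0.66. For Per1 the brightest probe gave -0.97 and the other 0.46. The E-box CACGTG was in 5 of the 16 clock promoters with an entry, against 6.86% of all genes, and not in that of Nr1d1 within this window.

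Among genes of glycogen and glucose metabolism, the glycogen-targeting subunits of protein phosphatase 1 stood out. Ppp1r3g, whose product promotes glycogen storage after feeding, went from 11.42 to 8.60 (7.03-fold lower), and Ppp1r3b from 15.52 to 14.27. A further subunit, Ppp1r3c, had 0.12. Pfkfb1, which sets the level of the glycolytic activator fructose 2,6-bisphosphate, had 1.13, with another probe at 1.32, and the glucose transporter Slc2a2 had 0.98. Pck1 and G6pc, enzymes of gluconeogenesis, had -0.75 and -0.28. The 29 genes had a median of -0.11. The 30 genes of amino acid breakdown and the urea cycle had a median of -0.08, and the 41 of the mitochondrial respiratory chain of -0.01, with none past 2-fold in either list. In one-carbon metabolism Nnmt, which methylates nicotinamide, had 16.96 and 15.72, with other probes at -1.11 to -0.50, and Gatm, of creatine synthesis, had 8.90 and 7.71, with its other probe at -0.59.

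Plasma protein genes lay on both sides of 0. Of 29 acute phase genes, 5 were at least 2-fold lower and 3 higher, against 3.07% and 1.34% of all genes. The lower ones include both metallothioneins and Saa2, with 15.37 and 14.20, and Saa1 had -0.80, whereas Apcs, which encodes serum amyloid P, had 12.87 and 14.08 and Hp, haptoglobin, 0.25. Lcn2, a marker of liver and kidney injury, had 13.01 and 13.17. Of 39 complement and coagulation genes, 2 were past 2-fold, both lower, against 3.07% of all genes. They were C9 (14.92 and 13.45) and C6 (8.70 and 7.62), both of the membrane attack complex. C3 had 0.20. Serpina7, the thyroxine-binding globulin, was 2.78-fold higher. Of the hepcidins, peptide hormones of iron control, Hamp2 went from 16.66 to 14.56 and Hamp from 17.12 to 17.90.

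Genes linked to DNA damage showed no common direction. Aristolochic acid forms DNA adducts, which nucleotide excision repair can remove and which can activate p53. The 22 repair genes had a median of 0.07 with none past 2-fold. The 24 p53 targets had a median of 0.17, with 3 lower and 1 higher, against 3.07% and 1.34% of all genes. Phlda3, a p53 target that inhibits the kinase Akt, went from 8.60 to 10.20. Plk3 went from 11.22 to 9.47, and Trp53inp1 from 12.51 to 10.85 with another probe at -0.71. For Cdkn1a, which encodes the cell cycle inhibitor p21, the brightest probe gave -1.08 and the others 0.35 and 1.01, so no direction can be given. Mdm2 had 0.30 by its brightest probe and -0.63 by another, so no direction can be given for it either. The 20 heat shock chaperones had a median of -0.32, with Hspb1 at 14.62 and 13.22 and Cryab at 9.87 and 10.90. The 24 genes of endoplasmic reticulum stress had a median of 0.12, and the 24 of collagens and matrix of 0.05, with none past 2-fold in either.

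**Figure D5:**
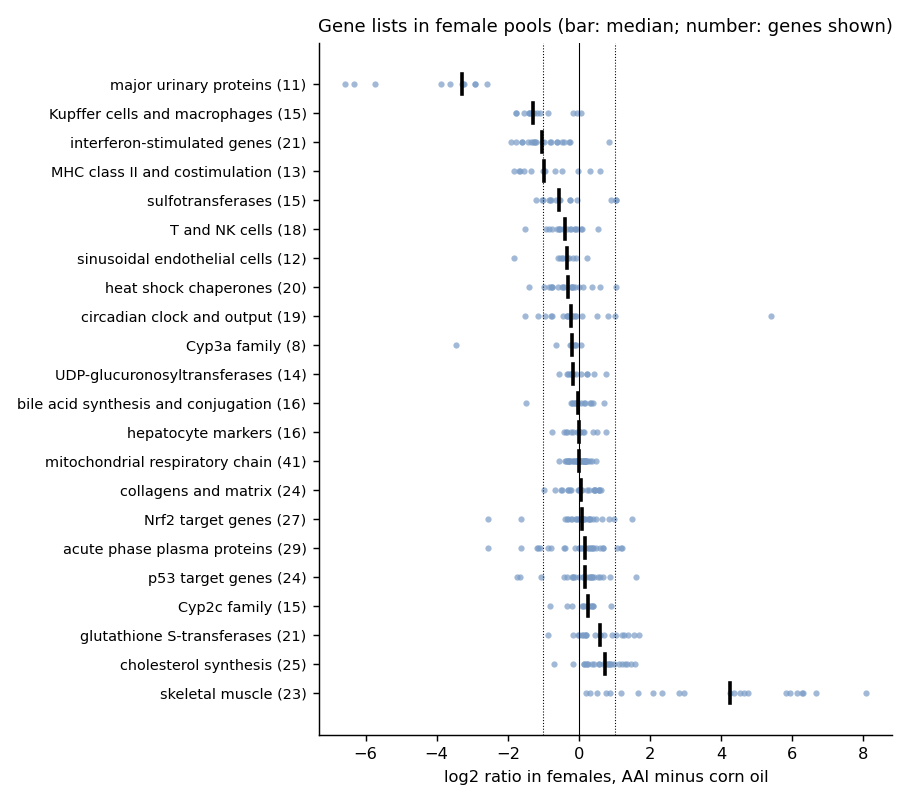
Log2 ratios (x axis) of the members of 22 gene lists (rows) above background in both female pools, each point a gene, with the list median as a black bar and dotted lines at 2-fold. The medians run from -3.29 for the major urinary proteins to 4.25 for skeletal muscle, and most other lists lie between the dotted lines.

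Skeletal muscle transcripts were present at higher levels on the AAI array than on the corn oil array of females. Of 23 muscle genes above background on both arrays, 18 were at least 2-fold higher, against 1.34% of all genes, and none was below 0, with a median of 4.25. Acta1, skeletal muscle actin, went from 4.65 to 12.73, Ckm, the muscle creatine kinase, from 4.98 to 9.52, and Tnni2, a fast muscle troponin, from 7.83 to 13.76. Myh1, a fast myosin, was not well above background with corn oil and was at least 161-fold higher. For Myh2, at 5.05 and 11.33, the other probe gave 0.32, and of the 10 muscle genes with further probes 6 had the same sign by every probe. The summed signal of the list was 12.10 with corn oil and 16.20 with AAI. In the male pools Acta1 had 8.80 and 15.60, and the list a median of 5.59.

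The fat cell genes Cfd, which encodes adipsin, and Retn had log2 ratios of 3.51 and 1.13, and both probes of Cfd were high. Adipoq, which encodes adiponectin, was not well above background with corn oil and was at least 2.14-fold higher. The 11 fat genes measured had a median of 0.26, with Plin1 at -0.67 and Lep at 0.08, and Ucp1 was not well above background on either female array. The summed signal of the fat list was 13.13 and 13.35. The lists of adrenal cortex, heart muscle and exocrine pancreas had medians of 0.13, 0.31 and 0.34, with no gene past 2-fold among those above background on both arrays. Pln of the heart list, the regulator of the calcium pump, was not well above background with corn oil and had a lower bound of 1.08 on the log2 scale. Des, a marker of stellate cells that muscle also expresses, had 1.65 by its brightest probe and -0.14 by the other. The part of muscle RNA in the other results was not tested. The hepatocyte markers had a summed signal of 21.74 with corn oil and 21.76 with AAI.

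Several of the largest decreases lay outside the lists. Gpr85, an orphan receptor, had 10.09 and 4.65, Adrb1, the beta-1 adrenergic receptor, 7.84 and 4.18, and Ptger4, a prostaglandin E2 receptor, 8.37 and 4.82. Each of these 3 genes encodes a G protein-coupled receptor, and each value comes from 1 probe above background on both arrays. Another Gpr85 probe, not well above background with corn oil, had a lower bound on the other side of 0, just under 2-fold higher. The non-coding or unnamed transcripts Gm33464 (-4.97), A_55_P2726221 (-3.82), 1700101C01Rik (-3.75) and LOC102637542 (-3.56) were read by 1 probe each. Pax2 and Parvb had ratios of -6.61 and -4.56 by their brightest probes, but their other probes above background gave -0.01 to 0.06 and -0.11. A further Pax2 probe, not well above background with corn oil, had a lower bound of 1.92 on the other side of 0.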

How the data were processed

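Mouse liver RNA, pooled from 5 mice per group, was hybridized to single-colour Agilent arrays, 1 per group. Feature Extraction 10.5.1.1 was the authors' scanner software, and they deposited the intensity of each spot, before and after background subtraction and trend correction, on a linear scale. Probe positions are on mm9. The deposited series table holds the same intensity and the authors' quantile-normalized intensity, used as an alternative. The multiplicative trend correction was not applied on the array of AAI-treated females. On that of corn oil-treated females its 1st and 99th percentiles were -0.12 and 0.29 log2 units. The file of corn oil-treated females keeps 3 significant digits, so names were taken from that of AAI-treated females.

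Control spots, spots marked as outliers (120 and 125 on the female arrays) and 26 spots of the corn oil-treated females whose processed intensity was over 2-fold from the background-subtracted one were left out. Spots of a probe were averaged as log2 values and quantile normalized over the 4 arrays (56393 of 56605 probes had a value on all 4) with Python 3.11.15, numpy 2.4.6 and pandas 2.3.3. The brightest probe stood for a gene. Dim values on 1 array gave a lower bound, computed against the lowest signal that counts as above background or the probe's own signal, whichever was higher. Sums over a list are log2 of summed linear signals. Arrays give no counts, and their number limits the precision. Groups come from the sample labels, and no p-value was computed with 1 array per group.

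The 64 gene lists were written from general knowledge, and they and the comparison were chosen with earlier results of these data known. Named were chosen principal genes of each list, up to 4 members per list with the largest ratios, and all Mup and Cyp3a genes. Also named were the 20 largest increases and decreases that no other probe above background on both arrays clearly opposed. Other list members named in the text, among them Marco, Mx1, Csf1r and the C1q genes, were chosen after their values were seen. Of the members, 3 were matched by an older name. Alternatives were 75th percentile scaling, normalization of the 2 female arrays alone, normexp with offset 50 (limma 3.58.1, R 4.3.3), no trend correction, the authors' values, outlier spots kept, probes averaged, no filter or a stricter filter on dim probes, and a 3-fold threshold. The calculation was tested on simulated data. Some list members and 1 probe sequence are not reported here.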

Additional observations from a re-analysis of the deposited data

Results flagged for a closer look

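A set of 10 genes, all among the 397 named genes, was past 2-fold in opposite directions in the female and male pools. The named genes were chosen in part for large ratios in females, and no such count over all genes of the array is given. With 1 array per group the difference was not tested, and sex and dose (5 and 2 mg/kg/day) cannot be told apart. Of these, 8 were lower in the female and higher in the male comparison. The metallothioneins Mt2 and Mt1 had log2 ratios of -2.55 and -1.62 in females and 3.17 and 2.04 in males, and the second hepcidin gene Hamp2 had -2.10 and 1.92. Cyp2b10 had -1.23 and 4.35, and Saa2, an acute phase protein, -1.18 and 2.97. Igfbp5 had -1.26 and 1.59, and the bile duct keratin Krt19 -1.20 and 1.26. The deubiquitinase Usp2, a clock output, also had -1.16 and 1.18. Higher in females and lower in males were Gstp1, with 1.55 and -1.47, and Cyp2d34, with 1.06 and -2.38. The other Mt1 probe gave 0.09 in females. Mt2 had 17.91 and 15.37 in females and 14.53 and 17.70 in males, and Cyp2b10 had 16.04 and 14.80 in females and 9.81 and 14.17 in males, so for both genes the corn oil-treated female pool had the highest signal and the corn oil-treated male pool the lowest. Gstp1 had 13.58 and 15.13 in females and 16.04 and 14.57 in males, with the order of the corn oil pools turned around.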

How the results depend on the processing

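No paired analysis was possible because each group is 1 array of pooled RNA. The counts of 972 lower and 426 higher genes were 324 and 139 with the normexp background, 223 and 120 at 3-fold, and 1427 and 1073 with no filter on dim probes, and stayed within 1.5 times under the other alternatives. With 75th percentile scaling, which moves the median log2 ratio by 0.05, they were 735 and 625. Of the 64 list medians under 9 alternatives each, those of 2 lists moved by more than the SD between probes, and 17 medians, all of 0.20 or less in size, had the other sign under at least 1 alternative. The median of the major urinary proteins was -3.63 with the probes of a gene averaged. That of skeletal muscle was 2.78 with normexp and 2.66 with probes averaged. Of 130 named genes past 2-fold, 96 stayed past it under every alternative. With normexp 23 no longer passed, with probes averaged 15 (among them Nsdhl at 0.69, Gpr182 at -0.76 and Mt1 at -0.77), with no trend correction 11 and with 75th percentile scaling 7. Genes named above that did not pass with normexp are Saa2, Socs3, Cdkn1a, Blnk, Pln, Adipoq, Sult1b1, Sult1e1, Sult2a1, C6, Retn, Gatm, Cryab, Dbp, Igfbp5, Krt19 and Cyp2d34, and further ones that did not pass with probes averaged are Socs2, Onecut1, Nnmt, Usp2, Sult5a1, Crebbp and Des. With probes averaged, Cdkn1a (0.10) and Cyp2b19 (-0.0767) changed sign. The cause was not tested. Dim genes are the least certain, and the single pool per group leaves the spread between mice unknown.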
